A study of Mus musculus with 6 samples.

Results

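The Schlafen genes of the mouse (Slfn) form a family of 8 names on the gene list used here, all carried on chromosome 11. The members were taken by gene name alone, and 7 of the 8 matched a gene name of a non-control probe, out of 27376 distinct gene names on the array. The last, Slfn14, is printed in the files under the older name Slfn14-ps and was matched through its RefSeq record, NM_001166028. No measured value entered the matching, but the family itself was chosen by earlier values of the contrast described here, the scaled log2 signal of TGC3 against TG. The differences of its members are therefore given as a description, with their errors and without p-values.

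The RNA came from sorted liver CD8+ T cells. The donors were female mice of the C57BL/6 background, 13 to 14 weeks old and kept under specific pathogen-free conditions. Every animal, controls included, had the dnTGFβRII transgene, which encodes a TGF-beta receptor II of dominant negative form and in the known line is driven by a CD4 promoter in T cells. The group named TG (dnTGFβRII) had no further change, and the group named TGC3 (dnTGFβRII CXCR3-/-) was in addition deficient in CXCR3, a chemokine receptor of activated T cells. There were 3 samples in a group and 1 one-colour (Cy3) Agilent array for each sample, and the comparison asks what the loss of CXCR3 does to these cells. No group without the transgene was analysed here. Nothing in the labels beyond the sample codes says that the 3 samples of a group came from separate mice, so p-values measure only the spread between these samples. By the file headers the 3 TGC3 arrays shared 1 slide and the 3 TG arrays another, and the effects of slide and genotype cannot be told apart.

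Schlafen genes are a vertebrate family that is best known from immune cells, and many of its members are induced by type I interferon. The short members Slfn1 and Slfn2 lack the carboxy-terminal part of the others. Slfn2 is needed for the quiescence of naive T cells and monocytes, and forced expression of Slfn1 slows the growth of thymocytes. Slfn3 and Slfn4 are of intermediate length. Slfn5, Slfn8, Slfn9 and Slfn14 are long and carry a helicase-like region.

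The labels were checked against the arrays first. Cxcr3, the targeted gene, gave signals of 23.8 to 33 units in TGC3 and 66107 to 73352 units in TG (limma adjusted p = 9.64e-07). The CD8 T cell markers were bright, with Cd8a at 93787 to 124967 units, while the Cd4 probe read 27.3 to 33.4. Of 12 CD8 T cell markers, 4 were called lower in TGC3 and the other 8 neither way, with a median difference of -0.20 on the log2 scale. Over all genes tested, 9.45% were called lower and 16.6% higher. The count of lower CD8 T cell markers was 0 without TGC3 1, TGC3 3, TG 1 or TG 2, 3 without TGC3 2, 1 without TG 3, and 11 after centring each array on its median. On the arrays, 58.9% to 63.8% of probes lay well above background. Markers of other cells were not absent: of 13 neutrophil markers with a probe 5 were tested, with 2 called higher and 1 lower in TGC3. Their summed level, in multiples of the 75th percentile of the array's signal, was 1.68 to 8.11 on the TGC3 arrays and 0.413 to 0.465 on the TG arrays, whereas Lcn2, Elane, Csf3r, Cxcr2 and Mmp8 were above background on no array. Array TGC3 2 stood apart in these markers at 8.11, against 1.68 on TGC3 1 and 3.09 on TGC3 3, and the differences of the members without it are given below. RNA from sorted cells is a bulk measure, in which fewer cells of a type and less RNA per cell cannot be told apart.

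All levels below are either the scanner's processed signal in intensity units or its log2 after subtraction of the 75th percentile of each array (the scaled log2 level). Differences are TGC3 minus TG on the scaled log2 scale, with the standard error (SE) and 95% interval of the limma fit over 16389 genes. The intervals of the dimmer probes of Slfn5 and Slfn9 are from a like fit over the 25103 probes kept by the filter. Signals of different probes are not comparable as amounts of RNA, so no Schlafen gene's level is read as more or less RNA than another's. The summed level of a marker list is weighted towards its brightest probes. The 10 Schlafen probes lay between bases 82775649 and 83088755 of chromosome 11 in the mm9 build, a span of 313.1 kb. Each is a 60-base oligonucleotide. A stretch of 30 bases is shown for 3 of them. These are the Slfn2 probe and the brighter Slfn9 probe, whose intervals did not include 0, and the Slfn14 probe. Slfn14 was the only member measured on 1 side of the comparison. Capitals in the last mark runs of 5 A, in a probe with 31.7% G and C.
Slfn2: gaggaatgggtgaaactccagatgaatgcc
Slfn9: ccataaggactgaaaccagagatgaagaca
Slfn14: cttaagaaatagAAAAAgAAAAAgctccta

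The differences over the family were small. Of the 6 members matched by name and tested, 5 had a lower mean in TGC3 (Slfn1, Slfn2, Slfn5, Slfn8 and Slfn9) and 1 a higher mean (Slfn3), with differences between -0.18 and 0.18 and a median of -0.12. These signs were the same after quantile normalization, cyclic loess, centring on the median and in the deposited values, which have the form of quantile-normalized values. Under normexp background correction those of Slfn1, Slfn2, Slfn3 and Slfn9 turned. On TG 3, 7 spot backgrounds stood over 10 times that array's median. With these replaced, the differences were -0.09, -0.12, 0.07 and -0.15 in that order, with the signs of the main fit. The median of all 16389 genes tested was -0.01. In 4 of the 6 the values of the groups did not overlap, which was the case for 46.7% of all genes. With limma and Benjamini-Hochberg adjustment over all genes, 0 of the 6 were called higher and 0 lower, where 26.0% of all genes were called (16.6% higher and 9.45% lower). In numbers 2720 genes were called higher and 1548 lower, a split that became 1801 and 4766 when arrays were centred on their medians, where 4 of the 6, Slfn1, Slfn2, Slfn8 and Slfn9, were called lower. At an unadjusted p under 0.05, 2 of the 6 were lower, Slfn2 and Slfn9, and 0 higher, where 17.5% of all genes were lower and 22.5% higher. With Slfn14 added, 7 were tested, with 1 called lower and 5 without overlap between the groups. Slfn4 was above background on no array and was not tested. Without array TGC3 2 the differences were -0.11 for Slfn1, -0.15 for Slfn2, 0.06 for Slfn3, -0.28 for Slfn5, -0.14 for Slfn8, -0.20 for Slfn9 and -2.89 for Slfn14. Since the contrast is the one for which the family was proposed, nothing is read from these counts.

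**Figure D1:**
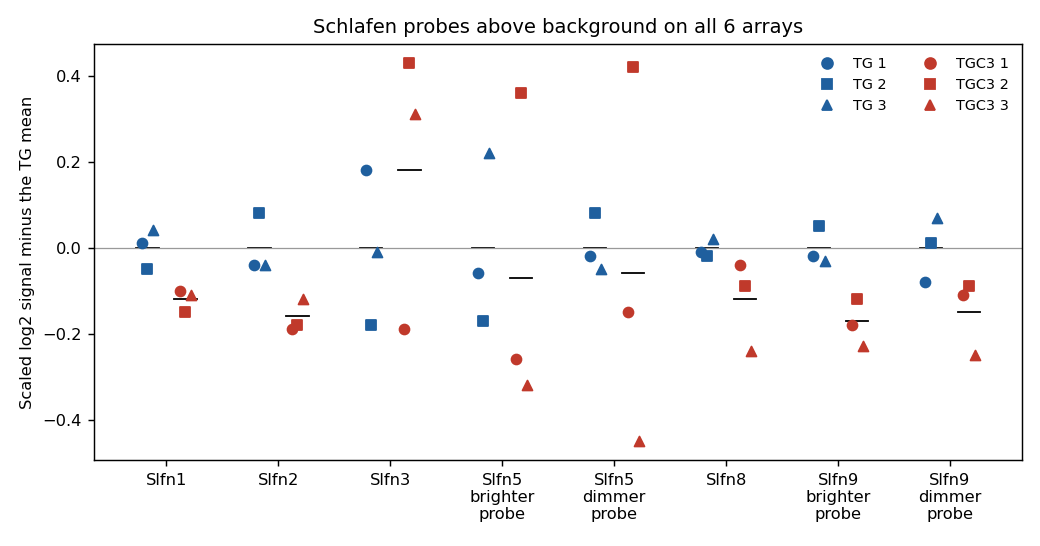
Scaled log2 level on each array minus the mean of the 3 TG arrays (vertical axis, log2) for the 8 probes above background on all 6 arrays (horizontal axis). Blue points are TG and red points TGC3, the marker shape gives the replicate and short bars are group means. For Slfn1, Slfn2, Slfn8 and both probes of Slfn9 all 3 red points lie below all blue points, while for Slfn3 and both probes of Slfn5 the groups overlap, with TGC3 2 the highest point.

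Slfn2, the short member required for T cell quiescence, lies with its probe at chr11:82883791-82883850 (mm9, plus strand). Its processed signal, in the order of the replicates, was 12030, 12459 and 13269 units in TGC3 and 12650, 13956 and 13926 units in TG. On the scaled log2 scale these were 4.34, 4.35 and 4.41 against 4.49, 4.61 and 4.49, so that all 3 TGC3 values lay below all TG values. The group means were 4.37 ± 0.04 and 4.53 ± 0.07 (SD, n = 3 each). The difference was -0.16 (SE 0.06, 95% interval -0.32 to -0.01), a change of -10.6%. It was -0.08 after quantile normalization, -0.07 after cyclic loess and -0.34 when arrays were centred on their medians. Genes of the same signal decile as Slfn2 had a median difference of -0.08.

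Slfn1, the other short member and the one tied to growth arrest of thymocytes, was read by a probe at chr11:82935656-82935715 (mm9, plus strand). Its signal was 930, 922 and 973 units in TGC3 and 948, 932 and 1075 in TG. The scaled log2 levels were 0.65, 0.60 and 0.64 against 0.76, 0.70 and 0.79, again without overlap. The groups differed by -0.12 (SE 0.06, interval -0.26 to 0.02), or -8.1%, from 0.63 ± 0.03 to 0.75 ± 0.05 (SD). Slfn1 varied little within groups: its pooled SD of 0.038 stood at the 3.7th percentile of genes of its signal decile. In percent the interval runs from -16.7% to 1.3%.

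Slfn3, of intermediate length, was the only tested member with a higher mean in TGC3. Its probe at chr11:83028431-83028490 (mm9, plus strand) read 82.8, 131 and 123 units in TGC3 and 102, 80.3 and 98.4 in TG. After scaling the levels were -2.84, -2.22 and -2.34 against -2.47, -2.83 and -2.66, so that TGC3 1 was the lowest array and TGC3 2 and TGC3 3 the highest, and the groups overlapped. The difference of 0.18 (SE 0.18, interval -0.26 to 0.63) equalled the median of its signal decile, 0.18. Single arrays moved it from 0.06 without TGC3 2 to 0.37 without TGC3 1.

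Slfn4, also of intermediate length and known as an interferon- and toll-like receptor-induced gene of macrophages and other myeloid cells, had a probe at chr11:83002974-83003033 (mm9, plus strand). It read 4.6, 4.09 and 3.97 units in TGC3 and 3.06, 3.19 and 4.48 in TG. None of these was well above background, so the arrays give no difference and no fold for it. Of 17 macrophage and monocyte markers, 9 were tested, with a median of 0.28. Of these, 6 were called neither way and 3 higher in TGC3, where 16.6% of all genes were called higher. Lyz2, the lysozyme of myeloid cells, was among the 3. It read 193, 1364 and 352 units in TGC3 and 90.3, 24.4 and 46.2 in TG (difference 3.22, SE 0.81, limma adjusted p = 0.0334). The summed level of these markers was 229 to 289 times the 75th percentile in TGC3 and 256 to 271 in TG, most of it from Ly6c2, which CD8 T cells also express. The other 2 called higher were C1qb (82.1 to 91.7 units against 59.9 to 73, difference 0.35) and the scavenger receptor Marco (111 to 128 units against 78.1 to 93.1, difference 0.38), whereas C1qa, C1qc and Timd4 were above background on no array.

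Slfn5, a long and nuclear member, was read by 2 probes. The brighter, at chr11:82778192-82778251 (mm9, plus strand), gave 511, 806 and 514 units in TGC3 and 553, 525 and 740 in TG. The dimmer, at chr11:82775649-82775708, gave 53, 80.5 and 45.2 in TGC3 and 54.7, 59.7 and 59.2 in TG. By both, the groups overlapped and TGC3 2 was the highest array. The difference was -0.07 (SE 0.20, interval -0.57 to 0.43) by the brighter probe and -0.06 (interval -0.57 to 0.45) by the dimmer. These intervals are wide: the pooled SD of the brighter probe, 0.300, stood at the 96.1st percentile of its signal decile. Without TGC3 2 the difference was -0.28, and it changed sign, to 0.03, 0.06 and 0.04, without TGC3 1, TGC3 3 and TG 3. TGC3 2 was also the highest array for the mean scaled log2 level of the macrophage and monocyte markers, at -0.61 against -1.28 and -1.18 on the other TGC3 arrays and -1.52, -1.75 and -1.48 on TG 1 to TG 3. It was highest as well for the cell cycle (2.74), neutrophil (-1.03), B and plasma cell (-1.84), dendritic cell (-0.78) and erythroid and platelet (-3.19) lists. For the quiescence, interferon, CD8 T cell, CD4 T cell, NK cell and hepatocyte lists it was not. The part of macrophages and monocytes, or of any other list, in the Slfn5 values was not tested.

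Slfn8 and Slfn9 are neighbouring long members with closely related sequences. The Slfn8 probe, at chr11:82816883-82816942 (mm9, minus strand), read 716, 711 and 655 units in TGC3 and 693, 701 and 778 in TG. After scaling the levels were 0.27, 0.22 and 0.07 against 0.30, 0.29 and 0.33, without overlap but with TGC3 1 only just below the TG arrays. The difference was -0.12 (SE 0.07, interval -0.29 to 0.05), or -8.0%. It was -0.06 without TGC3 3, the lowest array.

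Slfn9 was read by 2 probes on the minus strand. The brighter, at chr11:82794408-82794467 (mm9), gave 5657, 6069 and 5741 units in TGC3 and 5978, 6395 and 6552 in TG. The scaled log2 levels were 3.25, 3.31 and 3.20 against 3.41, 3.48 and 3.40, and the groups did not overlap. The means were 3.26 ± 0.05 and 3.43 ± 0.04 (SD), a difference of -0.18 (SE 0.06, interval -0.32 to -0.03), or -11.4%. The dimmer probe, at chr11:82794497-82794556, gave 1066, 1106 and 1012 units against 1029, 1113 and 1260, and a difference of -0.15 (interval -0.34 to 0.03). The files list the brighter probe for the RefSeq records of 3 genes, Slfn9, Slfn8 and Slfn10-ps, and the dimmer for those of 2, Slfn9 and Slfn8. The signal may therefore hold RNA of more than 1 of these genes, and what is called Slfn9 here is the signal of these probes. Slfn9 was not called in the fit used here, and it was called lower with trend and robust settings of the variance estimate (-0.18), with array weights (-0.19) and after centring on the median (-0.35). It was not called after quantile normalization (-0.11) or cyclic loess (-0.10), and the median difference of its signal decile was -0.08. Nothing is read from these calls, since the family was chosen by earlier values of the same contrast.

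**Figure D2:**
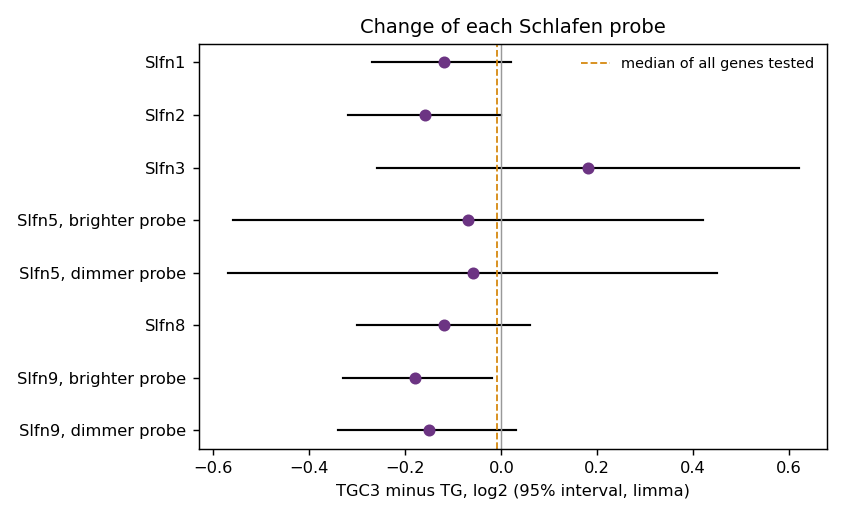
Difference TGC3 minus TG (horizontal axis, log2) of each Schlafen probe above background on all 6 arrays, with the 95% interval of the limma fit over probes. The dashed line is the median of all genes tested (-0.01). Only the intervals of Slfn2 and the brighter Slfn9 probe lie below 0, and those of Slfn3 and Slfn5 are the widest.

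Slfn14, a long member with ribonuclease activity known from platelets, megakaryocytes and erythroid cells, showed the largest difference of the family. Its probe, at chr11:83088696-83088755 (mm9, minus strand), read 56.3, 64.8 and 36.6 units on TG 1 to TG 3, each well above background. On TGC3 1 to TGC3 3 it read 14.2, 9.69 and 3.65 units, none of them well above background. By the group means the signal was thus at least 3.65-fold higher in TG, with no allowance for the spread between arrays. This bound sets the TG mean of -3.52 against a floor of -5.39, which takes for each TGC3 array the higher of its own value and the lowest signal well above background on that array. The measured TGC3 mean was -6.26. The fitted difference was -2.75 (SE 0.54, interval -4.06 to -1.43) and was called lower, but a probe that passes the filter through 1 group alone had to differ, so the call is no separate support. The call was lost without TG 1 (-2.65) and without TG 2 (-2.56), and the difference shrank to -0.79 under normexp background correction with aberrant backgrounds replaced, which adds an offset of 50 units to every signal. Erythroid and platelet markers gave 9 probed genes, of which 3 were tested, with a median of 0.74. Of these 1, the red cell anion exchanger Slc4a1, was called higher in TGC3, where 16.6% of all genes were. The other 2 tested were the globin gene Hba-a1 (37.5 to 82.5 units in TGC3 and 24.9 to 30.8 in TG, difference 0.74) and the platelet gene Gp1bb (59.1 to 68.2 against 47.1 to 56.6, difference 0.23), and neither was called. Alas2, Pf4, Ppbp, Itga2b and Gp9, also markers of erythroid cells, megakaryocytes and platelets, were above background on no array. The summed level of the 3 tested markers was 0.249 to 0.334 times the 75th percentile in TGC3 and 0.175 to 0.207 in TG.

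**Figure D3:**
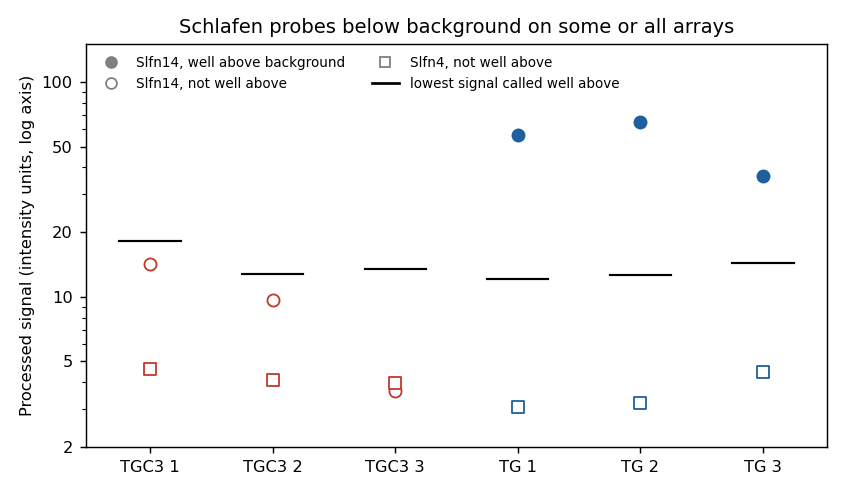
Processed signal (vertical axis, intensity units on a log axis) of the Slfn14 probe (circles) and the Slfn4 probe (squares) on each array (horizontal axis). Filled points are well above background, open points are not, and the short lines are the lowest signal well above background on that array. The 3 TG values of Slfn14, 36.6 to 64.8 units, lie above the lines, and every other point lies below.

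The genes around the Schlafen cluster were read next. Within 500 kb of the outermost Schlafen probes, 32 other gene names had a probe and 22 were tested. Of these 1 was called higher in TGC3, 1 lower and 20 neither, with a median difference of 0.10, where 16.6% of all genes were called higher and 9.45% lower. The gene called lower was Nle1, a factor in ribosome assembly, at 660, 716 and 708 units in TGC3 and 784, 848 and 846 in TG (difference -0.31, SE 0.06, limma adjusted p = 0.0172). The one called higher was BX515732, an unnamed transcript at 108, 121 and 122 units against 72.1, 73.7 and 71.2 (0.63, SE 0.08, adjusted p = 0.00404). Both lie outside the cluster. Inside it, 2 other transcripts were tested, AI662270 at 0.14 (interval -0.08 to 0.37) and NAP002592-003 at -0.17 (interval -0.50 to 0.16), and neither was called.

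**Figure D4:**
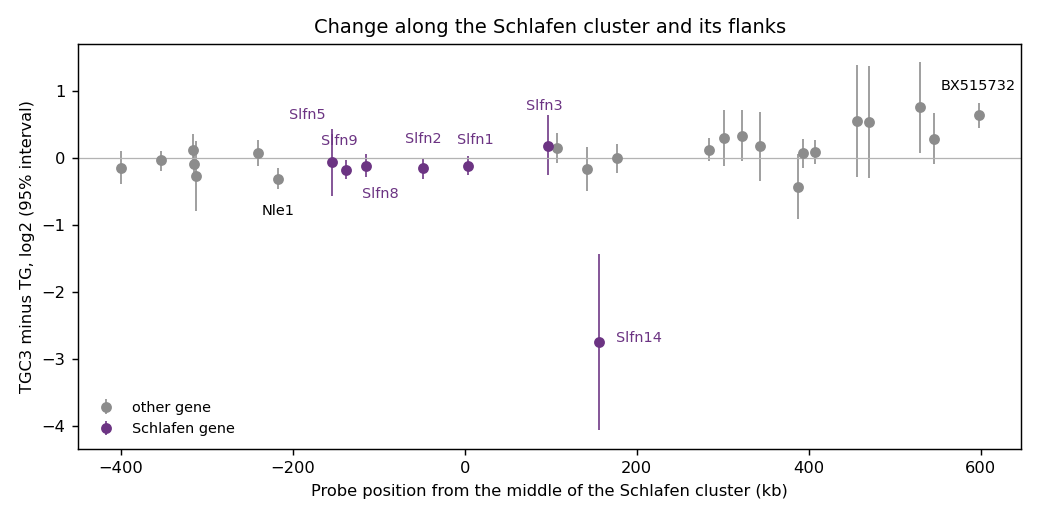
Difference TGC3 minus TG (vertical axis, log2, with 95% intervals) against probe position from the middle of the Schlafen cluster (horizontal axis, kb). Purple points are Schlafen genes and grey points other genes tested within 500 kb of the outermost Schlafen probes. The fitted value of Slfn14, -2.75, rests on TGC3 signals not well above background. By the group means the arrays give only a bound, a signal at least 3.65-fold higher in TG. That bound makes no allowance for the spread between arrays. The other genes of the region lie between -0.43 and 0.75.

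Slfn2 and Slfn1 are known for holding T cells at rest, so other genes with that role were read as a group. Of 30 quiescence genes, all 30 were tested, 3 were called higher in TGC3, 2 lower and 25 neither, with a median of -0.08. The counts were 1 to 2 higher and 1 to 3 lower when single arrays were left out, and 1 higher and 9 lower after centring on the median. The share of 5 in 30 was not above that of all genes, 26.0%. Those higher were Cdkn2c, an inhibitor of CDK4 and CDK6 (0.60, SE 0.15, limma adjusted p = 0.0334), Klf4, a zinc finger factor that restrains T cell proliferation (0.56, SE 0.09, adjusted p = 0.00905), and Klf2, which maintains naive T cells (0.31, SE 0.07, adjusted p = 0.0287). Those lower were Pdcd4, an inhibitor of translation (-0.53, SE 0.06, adjusted p = 0.00403), and Tob2, of the antiproliferative BTG/TOB family (-0.29). The Tob2 value is that of its brighter probe. Its dimmer probe read 2541, 2253 and 2658 units in TGC3 and 2388, 2510 and 2579 in TG, with overlap. By contrast, 19 of 26 cell cycle genes were called higher and 0 lower (20 and 0 at an unadjusted p under 0.05 in the same limma fit), with a median of 0.79. Of all genes, 16.6% were called higher and 9.45% lower. The count of higher cell cycle genes was 11 without TG 1, 12 without TG 2 and 15 to 20 without any other single array. It was 0 under normexp and 19 under normexp with aberrant spot backgrounds replaced. Cenpf, a kinetochore protein, had a difference of 2.14 (SE 0.22) and Plk1, a mitotic kinase, one of 2.04 (SE 0.20). The difference of every Schlafen gene above background on all arrays was smaller than these in size.

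Since many Schlafen genes are interferon-induced, type I interferon-stimulated genes were the other list. Of 42, 40 were tested, with 0 called higher, 9 lower and 31 neither, and a median of -0.16, where 16.6% of all genes were called higher and 9.45% lower. At an unadjusted p under 0.05 in the same limma fit these were 0 higher and 10 lower, against 22.5% and 17.5% of all genes. The list's count of lower genes was 1 to 4 when single arrays were left out, with 1 without TGC3 3 and 1 without TG 3. It was 17 after centring on the median and 0 under normexp, where the median was 0.11. Under normexp with aberrant spot backgrounds replaced it was 10, with a median of -0.15. The largest differences were those of Usp18, which removes ISG15 and dampens interferon receptor signalling (-1.12, SE 0.19, limma adjusted p = 0.00978), Mx2, an antiviral GTPase (-0.98, SE 0.22, adjusted p = 0.0241), Oasl1 (-0.78, SE 0.19, adjusted p = 0.0322) and Isg20, an exonuclease (-0.71, SE 0.16, adjusted p = 0.0258). Ifit1, Ifit3 and Irf7 had small positive differences of 0.06, 0.16 and 0.06 and were not called.

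**Figure D5:**
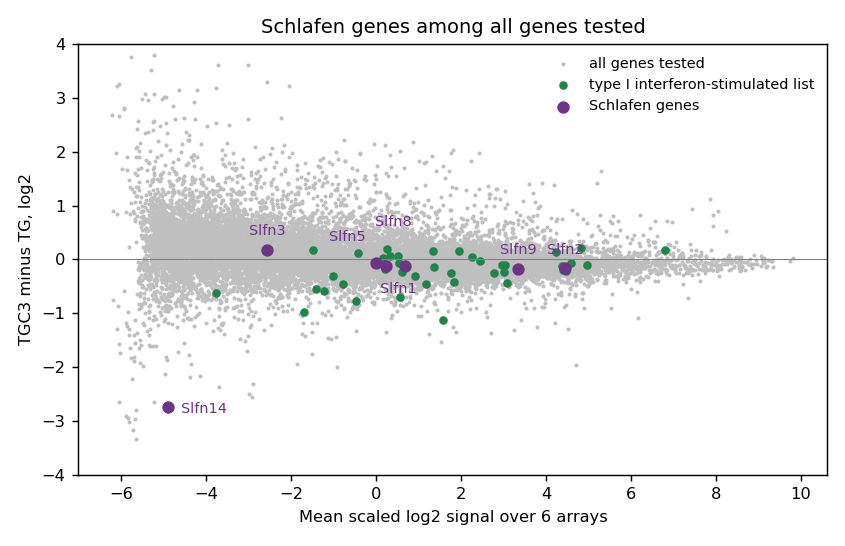
Difference TGC3 minus TG (vertical axis, log2) against mean scaled log2 signal over the 6 arrays (horizontal axis) for all 16389 genes tested (grey), the type I interferon-stimulated list (green) and the Schlafen genes (purple). The horizontal position is that of a gene's probe and does not order genes by amount of RNA, and 16 genes lie beyond the vertical limits of ±4. The Schlafen genes other than Slfn14 lie near 0 within the grey cloud.

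The sequence before the starts of the genes was read as a further description. RefSeq start sites in the GRCm38.p6 build, whose coordinates differ from those of mm9 above, were available for all 8 members, with 2 starts for Slfn8. Windows ran from 250 bases before to 50 after the start, 300 bases each. A search on both strands used 3 motifs, chosen after the sequences were seen: the core of the interferon response element (GAAA, any 2 bases, GAAA), a form of ETS factor sites (CAGGAAG) and the STAT site (TTC, any 3 bases, GAA). Other forms of ETS sites were not searched. The core of the interferon response element was found in the windows of Slfn5, Slfn8 and Slfn9, all long members, and in 3.4% of 32851 promoter windows of the same length. It is shown in capitals within 40 bases, in the direction of the gene, because these are the members whose window holds it.
Slfn5: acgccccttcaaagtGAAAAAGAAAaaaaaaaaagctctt
Slfn8: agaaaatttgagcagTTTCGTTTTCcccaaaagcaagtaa
Slfn9: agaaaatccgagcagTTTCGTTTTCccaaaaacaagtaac

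The Slfn5 stretch is chr11:82951932-82951971 (plus strand), that of Slfn8 chr11:83020834-83020873 (minus strand) and that of Slfn9 chr11:82991851-82991890 (minus strand). The match begins 155 bases before the start of Slfn5, 45 before that of Slfn9, and 48 or 136 before those of Slfn8. The letters of the match were the same in Slfn8 and Slfn9, whose windows were 80.8% identical over the alignment, whereas the next most alike pairs reached 53.0%. Slfn8 and Slfn9 had similar differences, -0.12 and -0.18, and Slfn5, with the same motif, had one of -0.07 with overlapping groups. The Slfn9 probes are also listed for Slfn8, so the values of Slfn8 and Slfn9 may not be separate measures. A link between the motif and the differences was not tested.

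The ETS form CAGGAAG was found in the windows of Slfn1, Slfn2, Slfn3 and Slfn4, the short and intermediate members, and in 13.3% of all windows. The Slfn3 window held 2. It is shown for the others and for the nearer match of Slfn3.
Slfn1: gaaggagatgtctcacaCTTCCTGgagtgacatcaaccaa
Slfn2: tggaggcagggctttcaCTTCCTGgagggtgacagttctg
Slfn3: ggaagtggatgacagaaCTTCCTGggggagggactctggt
Slfn4: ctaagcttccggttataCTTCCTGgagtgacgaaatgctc

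These stretches lie on the plus strand of chromosome 11, at chr11:83116730-83116769 for Slfn1, chr11:83065041-83065080 for Slfn2, chr11:83191272-83191311 for Slfn3 and chr11:83175097-83175136 for Slfn4. The match began 73, 54, 41 and 72 bases before the start, in that order. The STAT site was in none of the Schlafen windows and in 8.3% of all. The Slfn14 window held none of the 3 motifs. A match is a description of the letters and not of a factor's binding, which was not measured.

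Slfn2 was taken for a search for genes of like pattern because its probe is the brightest of the family, a choice that says nothing of its amount of RNA. The genes most like it over the 6 arrays were Trmt61a (Pearson r = 0.9969), Qtrt1 (0.9918) and Pus7 (0.9884). Their differences were -0.24, -0.18 and -0.33, and of these only that of Pus7 was called (limma adjusted p = 0.0307). Among the 16388 other genes tested, 98 had an r over 0.95, and 6 points in 2 groups on separate slides share their scaling.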

How the data were processed

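The scanner software was Feature Extraction, version 10.7.3.1 per the file headers and 10.7.1.1 per the submitters' processing notes. It gave, per the file headers, an intensity per spot corrected for background within the array (the processed signal), beside uncorrected intensities. A deposited matrix holds log2 normalized values, used as an alternative, and how the authors normalized it is not given in the sources used here. Its columns all had a median of 5.58, and once sorted they differed by at most 0.0066 on the log2 scale. That is the form quantile normalization leaves, so the deposited values and quantile normalization are not 2 separate checks. Of 43379 non-control spots, 41174 distinct probes were averaged on the log2 scale and scaled by each array's 75th percentile. The filter asked for a call well above background on 3 or more of the 6 arrays and left 25103 probes, of which the brightest per gene was used. Probe names were updated from RefSeq where an accession, symbol or synonym matched. TGC3 was compared with TG by limma 3.58.1 in R 4.3.3 (two-sided, Benjamini-Hochberg adjusted p under 0.05).

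Tested on simulated data with the same spread, the fit found 30 of 67 changes of 1.5-fold, 52 of 67 of 2-fold and 62 of 66 of 4-fold, and made 8 calls among 16189 genes without a change. Far fewer genes changed there than the 26.0% called in the data, and no slide effect was simulated. The adjusted threshold depends on that share, so these rates cannot be taken as those of the real comparison. The members and gene lists were chosen with earlier results of these data known. Named genes are all members, Cxcr3, Cd8a and, in the check of other cells, Cd4 and Lyz2, up to 4 called genes per list and in the flanks, the genes most like Slfn2 and marker genes beside a result; Tob2, Slc4a1, Hba-a1, Gp1bb, C1qb, Marco, Ifit1, Ifit3, Irf7 and the transcripts inside the cluster were added after their values were seen. Lists not given above had 4 CD4 T cell markers tested (1 called higher, 0 lower), 7 of B and plasma cells (5 higher, 1 lower), 5 of dendritic cells (2 higher, 0 lower), 7 of NK cells (0 higher, 3 lower) and 1 of hepatocytes (1 higher). The shares over all genes were 16.6% higher and 9.45% lower. Alternatives were other normalizations, background corrections, filters, probe choices and variance settings, the replicate block, and leaving out each array. The results of some marker genes are not reported here.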

Additional observations from a re-analysis of the deposited data

How the results depend on the processing

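Of all genes, 2720 were called higher and 1548 lower in TGC3. The counts were 1801 and 4766 after centring on the median, which moved the median of all genes to -0.184, and 0 and 1 with normexp (359 and 148 at an unadjusted p under 0.05 by limma). With normexp after aberrant spot backgrounds, of which TG 3 had 7, were replaced, an alternative chosen after the data were seen, they were 2040 and 1869. Lower calls numbered 578 without a filter and 2414 with array weights. Leaving out single arrays gave 1752 to 2356 higher and 573 to 1505 lower calls. The 1 Schlafen gene called lower, Slfn14, became 5 genes after centring, 2 with trend and robust settings and 2 with array weights (Slfn9 with Slfn14). The count became 0 with normexp, stayed 1 with normexp after aberrant spot backgrounds were replaced, and became 0 with the filter on all 6 arrays, which removes Slfn14. It was 0 to 1 when single arrays were left out, with 0 without TG 1 and without TG 2. The cause was not tested. With normexp the sign turned for Slfn1 (0.07), Slfn2 (0.28), Slfn9 (0.23) and Slfn3 (-0.53). None of these turned once aberrant spot backgrounds were replaced. The sign of Slfn5 turned without TGC3 1 (0.03), TGC3 3 (0.06) and TG 3 (0.04), in a range of -0.28 to 0.06 over single arrays left out. With the replicate number as a block, 1795 genes were higher and 554 lower, with 1 Schlafen gene lower, and 12 of the cell cycle genes were higher, 2 of the interferon list lower and 0 of the CD8 T cell markers lower. Same-numbered arrays did not deviate together (correlations of 0, -0.08 and -0.10), so the numbers were not taken as pairs. No Schlafen gene was called higher under any alternative run. Signal over background limits Slfn4 and Slfn14, and 3 arrays per group limit the precision of all values.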
